A study of Homo sapiens with 6 samples.

Results

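The E2 ubiquitin-conjugating enzyme genes were taken as all symbols in the count tables made of UBE2, a letter and at most a single digit. The rule found 35 genes among 56638 listed symbols, and 33 of them had enough reads to be tested. UBE2L2 and UBE2U had 0 reads in every library, which allows a level of up to 0.193 to 0.239 CPM per library (CPM being reads of a gene scaled to a common library size), set at 3 reads. UBE2L2 and UBE2L4 are annotated as pseudogenes in RefSeq and entered only through their names. E2 enzymes under other names, such as CDC34, fell outside the rule and are described only as partners.

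An E2 enzyme takes activated ubiquitin from an E1 enzyme onto its catalytic cysteine and hands it to a substrate, usually with the help of an E3 ligase. Some members of the family carry ubiquitin-like proteins in its place, such as SUMO, NEDD8 or ISG15, and the UBE2V proteins lack the cysteine and work as partners of UBE2N. Which E2 serves a reaction helps to set the kind of ubiquitin chain that is built, and with it the fate of the protein that carries it.

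The cells were DLD-1, an established human colorectal cancer line, transfected with an siRNA against the long non-coding RNA lncSLCC1 or with a control siRNA, with 3 RNA-seq libraries each. The labels give passages 16 to 19 and name no genetic change and no time after transfection. They do not say whether replicates came from separate cultures, so the p-values here reflect library-to-library spread that could be technical. Gene reads numbered 12572277 to 15262872 in the lncSLCC1 siRNA libraries and 14873343 to 15568075 in the control libraries. The targeted RNA, which the labels do not tie to a listed symbol and which is taken here as RP11-400N13.2, had 1.66, 2.62 and 2.10 CPM in the lncSLCC1 siRNA libraries and 5.197, 9.31 and 9.04 CPM in the controls (log2 fold change -1.88, SE 0.264, adjusted p = 0.0027).

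Of 10 colorectal epithelial markers, 8 were at 1 CPM or more in every library, with CDX1 and CEACAM5 below 1 CPM in each. Summed fibroblast markers reached 3.12 to 3.27 CPM in the lncSLCC1 siRNA libraries and 2.28 to 2.80 CPM in the controls, with DCN and LUM at 0. Leukocyte markers summed to 1.21 to 1.95 CPM against 1.99 to 2.28 CPM in the controls, and endothelial markers to 1.40 to 1.98 CPM against 1.24 to 2.07 CPM, with PECAM1 and KDR at 0.

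After lncSLCC1 siRNA, 8 of the 33 tested E2 genes fell and 0 rose at an adjusted p under 0.05 (genes that passed are termed called), against 7.39% of all tested genes lower and 6.46% higher. That is 24.2% of the tested members. These are levels in bulk RNA, in which fewer cells of a kind and less RNA per cell cannot be told apart. Among the genes that fell were UBE2S and UBE2C, which build chains with the anaphase-promoting complex; UBE2N and UBE2V2, the partners of a lysine-63 chain enzyme; UBE2M, an E2 of NEDD8; UBE2E2; and UBE2G2, an E2 of the endoplasmic reticulum. In either direction 13.8% of tested genes were called. At an unadjusted p under 0.05, 13 members were lower and 0 higher, against 16.3% and 15.3% of tested genes. DESeq2 called 10 members lower and 0 higher, against 10.4% and 6.21% of the genes it tested, and limma-voom 8 and 0, against 6.87% and 6.34%.

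How many members fell depended on which libraries were used. Without lncSLCC1 siRNA replicate 1, 2 or 3, 3, 2 and 2 members were called lower, against 2.04%, 1.6% and 1.56% of tested genes. Without control replicate 2, 2 members were called lower, against 2.26%. Without control replicate 1 or 3, 16 and 12 members were called lower, against 15.5% and 13.4%. With no low-count filter 11 members were lower and 1 higher, against 5.57% and 5.33%, and with library totals 7 and 0, against 5.34% and 9.46%.

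**Figure D1:**
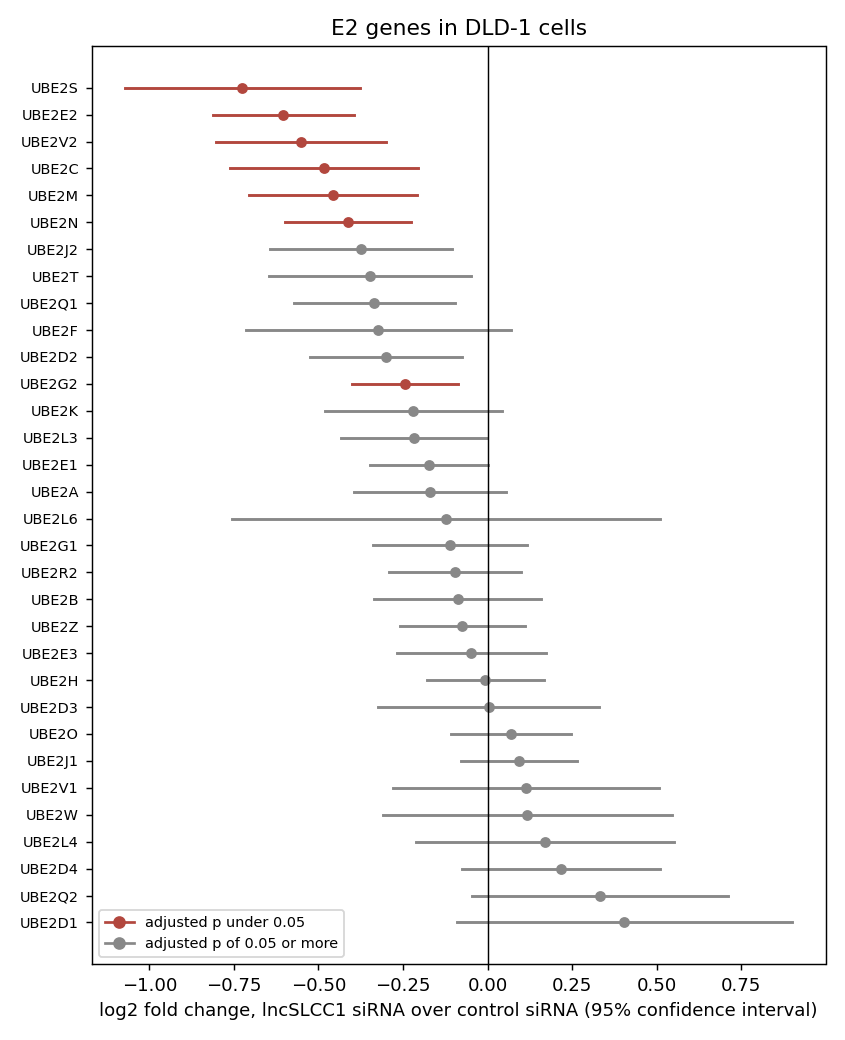
Log2 fold change of the tested E2 genes described here, lncSLCC1 siRNA over control siRNA, with its 95% confidence interval from edgeR's fit (x axis), genes on the y axis ordered by the fold change. The genes drawn in red have an adjusted p under 0.05, and they run from UBE2S at -0.72 to UBE2G2 at -0.24.

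Most members lay below 0. The log2 fold change, lncSLCC1 siRNA over control siRNA, was below 0 for 24 of 33 members, against 49% of all tested genes, and its median was -0.17 among members and 0.01 among all tested genes. With library totals in place of TMM scaling these medians were -0.10 and 0.08. The members together made up 0.229%, 0.227% and 0.228% of gene reads in lncSLCC1 siRNA replicates 1, 2 and 3, and 0.244%, 0.265% and 0.252% in control replicates 1, 2 and 3, so the groups did not overlap. Singly, 13 members had every lncSLCC1 siRNA library below every control library, against 19.6% of tested genes, and 2, UBE2D4 and UBE2Q2, had every one above, against 19.4%.

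Divided by the length of the longest annotated transcript, UBE2E1 and UBE2C had the highest levels in the lncSLCC1 siRNA libraries, at 90.3 and 82.2 CPM per kilobase, while in the controls they stood at 101.8 and 115.1, so that UBE2C came first there. The lowest level among the tested members was that of UBE2V1, at 1.498 CPM per kilobase after lncSLCC1 siRNA and 1.39 in the controls. This place is uncertain, because its pseudogene copy UBE2V1P2 was counted apart and held 652% to 939% of the reads of UBE2V1, depending on the library. UBE2M, UBE2D3, UBE2L3 and UBE2G2 stood at 53.05, 60.6, 46.0 and 42.9 CPM per kilobase after lncSLCC1 siRNA and at 72.8, 60.5, 53.5 and 50.8 in the controls. The transcripts used by these cells may be shorter than the longest annotated, and the order of close neighbours was not tested.

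UBE2M, known as UBC12, charges cullins with NEDD8 together with the ligase subunit RBX1. It had 81.4, 83.6 and 75.0 CPM after lncSLCC1 siRNA, and 124.0, 112.6 and 92.8 CPM in the controls. The groups did not overlap, with control replicate 3 the nearest to the lncSLCC1 siRNA libraries. The log2 fold change was -0.46 (SE 0.111, adjusted p = 0.0267). The call was lost without lncSLCC1 siRNA replicate 1, 2 or 3 (adjusted p = 0.0959, 0.093 and 0.129) and without control replicate 2 (0.107). UBE2F, the other NEDD8 E2, acts with RNF7 and stood at 5.63 ± 1.12 and 7.02 ± 0.859 CPM in lncSLCC1 siRNA and control libraries (SD, n = 3 each), with overlapping groups (log2 fold change -0.32, adjusted p = 0.236). The level of UBE2F is uncertain, because its pseudogene copies held 23.9% to 37.0% of its reads, depending on the library. It also shares exons with the readthrough gene UBE2F-SCLY, listed at 1 to 5 reads per library. With the pseudogene copies added the UBE2F value was -0.32 (adjusted p = 0.188). UBE2Z, which takes ubiquitin or FAT10 from the E1 enzyme UBA6, was at -0.07 (adjusted p = 0.574), and UBE2L6, the ISG15 E2, at -0.12 (adjusted p = 0.799) on 26 to 61 reads per library.

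In the sumoylation list 3 of 14 tested genes fell and 0 rose (this and the other partner lists stand against 7.39% of all tested genes lower and 6.46% higher), with a median log2 fold change of 0.00. SENP5, a SUMO protease, had 38.1, 38.7 and 37.5 CPM after lncSLCC1 siRNA and 57.4, 58.8 and 58.9 CPM in the controls, a log2 fold change of -0.62 (SE 0.083, adjusted p = 0.0022), and was called in every setting. The SUMO ligase genes PIAS2 and PIAS4 fell by 0.44 and 0.32 (adjusted p = 0.0179 and 0.0393), and PIAS4 missed the threshold with library totals (adjusted p = 0.0614) and with no low-count filter (0.0538). SUMO2 and SUMO3 were at log2 fold changes of 0.19 and 0.01 (adjusted p = 0.506 and 0.947), and the SUMO E1 subunits SAE1 and UBA2 at -0.03 and -0.20 (adjusted p = 0.874 and 0.144). In the neddylation list 0 of 12 genes were called in either direction (median -0.14), and NEDD8 itself was at -0.17 (adjusted p = 0.579). In the ISG15 and FAT10 list 0 of 4 were called (median 0.08). The E1 enzyme list likewise had 0 of 10 called in either direction (median 0.02).

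**Figure D2:**
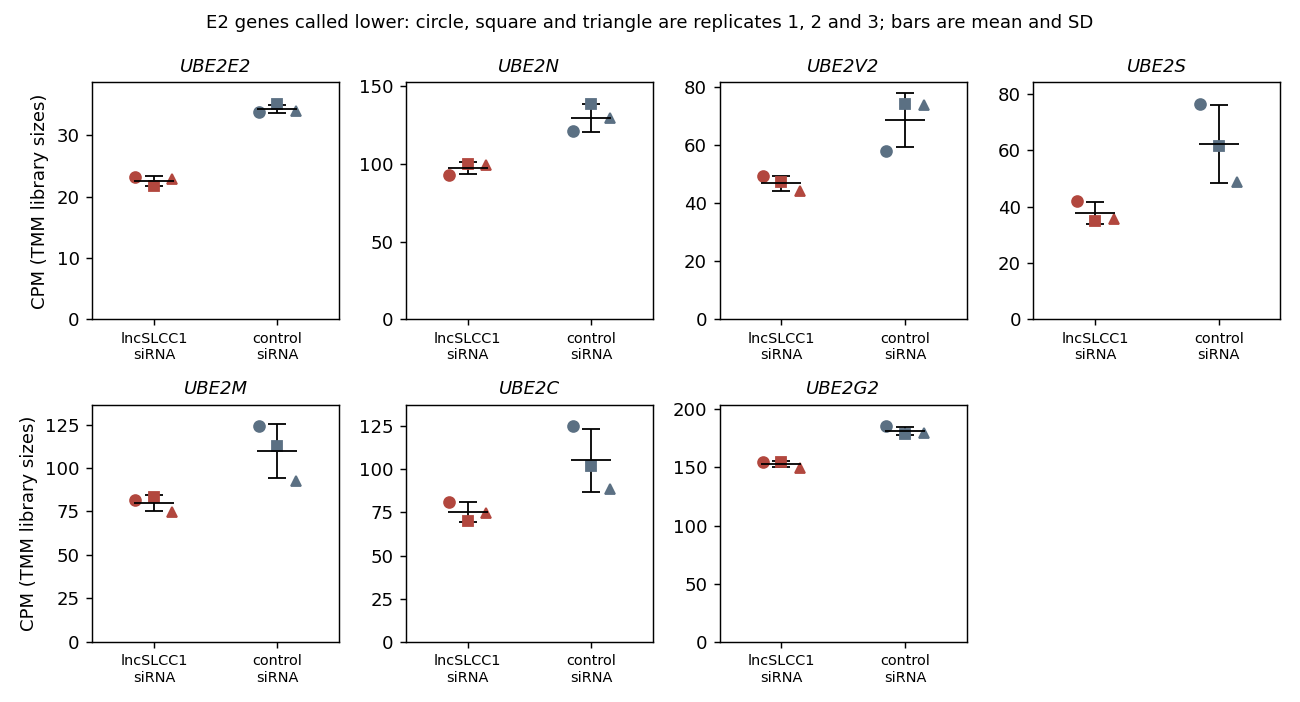
Level in CPM (y axis, from 0) of E2 genes that fell, in the 3 lncSLCC1 siRNA libraries (red, left) and the 3 control libraries (blue, right) of each panel, with the mean and SD as bars. In every panel the lncSLCC1 siRNA libraries lie below all control libraries, and control replicate 1 (circle) is the highest control for UBE2S, UBE2M, UBE2C and UBE2G2 and the lowest for UBE2E2, UBE2N and UBE2V2.

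The anaphase-promoting complex (APC/C) is the ligase that drives exit from mitosis: UBE2C starts ubiquitin chains on its substrates and UBE2S extends them, while UBE2D1 and UBE2E1 can also act with it. UBE2S had 42.05, 34.9 and 35.8 CPM after lncSLCC1 siRNA, and 76.4, 61.4 and 48.7 CPM in the controls. UBE2C had 81.0, 69.9 and 74.6 CPM after lncSLCC1 siRNA, and 124.9, 102.0 and 88.7 CPM in the controls. For both genes the groups did not overlap and control replicate 3 was nearest to the lncSLCC1 siRNA libraries. The log2 fold changes were -0.72 for UBE2S (SE 0.156, adjusted p = 0.0163) and -0.48 for UBE2C (SE 0.125, adjusted p = 0.0325). Without lncSLCC1 siRNA replicate 2 or 3 or control replicate 2, the adjusted p was 0.089, 0.0837 and 0.0729 for UBE2S. UBE2C missed the threshold without lncSLCC1 siRNA replicate 1, 2 or 3 (0.0801, 0.1498 and 0.125) and without control replicate 2 (0.1002).

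UBE2S reads are uncertain because near-identical copies were counted beside it. The pseudogenes UBE2SP1 and UBE2SP2 together held 105% to 137% of the reads of UBE2S, depending on the library, and UBE2SP1 averaged 42.1 CPM after lncSLCC1 siRNA and 59.04 CPM in the controls (log2 fold change -0.49, adjusted p = 0.0267). How many of these reads came from UBE2S is not known. With the copies added to the parent, a setting chosen after seeing the data, UBE2S stood at a log2 fold change of -0.61 (SE 0.129, adjusted p = 0.0158). UBE2M with its copy UBE2MP1 stood at -0.48 (adjusted p = 0.0213).

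In the APC/C list 3 of 17 tested genes fell and 0 rose (median -0.09). CDC20, the activator of the complex in mitosis, had 258, 243 and 256 CPM after lncSLCC1 siRNA and 426, 357 and 328 CPM in the controls (log2 fold change -0.55, SE 0.0998, adjusted p = 0.00795). The subunit genes CDC23 and ANAPC10 fell by 0.51 and 0.54 (adjusted p = 0.00708 and 0.028). FZR1, the activator used after mitosis, was at -0.06 (adjusted p = 0.665).

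The RefSeq promoter windows (GRCh38.p14, 250 bases before to 50 after the annotated start) cover 26 of the 35 members, and are shown for UBE2S, which fell, for UBE2T, which missed the threshold and whose window holds both marked motifs, and for UBE2E2, which fell and whose window holds neither of the marked motifs. Capitals mark CCAAT, the letters bound by NF-Y, and TTTGAA, the core of the cell cycle genes homology region, on either strand.
UBE2S (chr19:55407739-55408038, minus strand): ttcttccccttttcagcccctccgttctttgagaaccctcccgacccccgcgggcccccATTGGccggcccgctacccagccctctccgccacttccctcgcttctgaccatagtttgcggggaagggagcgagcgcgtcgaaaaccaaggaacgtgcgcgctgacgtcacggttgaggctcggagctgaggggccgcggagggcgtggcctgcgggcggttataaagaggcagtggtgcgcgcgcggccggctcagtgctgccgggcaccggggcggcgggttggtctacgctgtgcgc
UBE2T (chr1:202341887-202342186, minus strand): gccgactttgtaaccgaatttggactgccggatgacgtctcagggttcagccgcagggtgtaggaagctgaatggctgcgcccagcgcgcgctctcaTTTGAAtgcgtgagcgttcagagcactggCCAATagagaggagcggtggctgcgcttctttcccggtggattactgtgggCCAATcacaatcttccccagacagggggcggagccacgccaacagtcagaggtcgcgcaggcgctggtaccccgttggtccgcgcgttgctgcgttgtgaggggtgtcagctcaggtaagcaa
UBE2E2 (chr3:23202848-23203147, plus strand): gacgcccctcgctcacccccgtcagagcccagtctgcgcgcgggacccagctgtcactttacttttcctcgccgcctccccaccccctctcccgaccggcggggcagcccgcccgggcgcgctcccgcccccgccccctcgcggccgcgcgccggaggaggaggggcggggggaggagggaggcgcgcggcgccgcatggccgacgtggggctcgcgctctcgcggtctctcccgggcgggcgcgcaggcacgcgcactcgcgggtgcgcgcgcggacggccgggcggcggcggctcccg
The UBE2S window holds the NF-Y letters once, on the reverse strand, 191 bases before the start. The UBE2T window holds the homology region core 153 bases before the start, and the NF-Y letters 124 and 73 bases before it. The UBE2E2 window is 81.7% GC.

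The 26 members have 38 windows, 7 members having 2 or more, so shares are compared per window. Searched over both strands, the NF-Y letters were in 11 of 38 member windows, from 9 members, and in 34.6% of 35116 windows of the same length. The homology region core was in 3 of 38 member windows, those of UBE2F, UBE2T and UBE2U, and in 15.2% of windows. Its variant TTCGAA was in 0 of 38 member windows and 1.45% of all windows. Of the 5 members that fell and have a window, UBE2S alone held the NF-Y letters, and none held the core or its variant. The letters CGCG were in 33 of 38 member windows, from 24 members with all 5 that fell included, and in 49.9% of all windows. These matches describe letters in the windows only.

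UBE2N and the UBE2V proteins form the pairs that build lysine-63 chains, which serve in signalling and, with UBE2V2, in tolerance of DNA damage. UBE2N, known as UBC13, had 92.9, 99.7 and 99.3 CPM after lncSLCC1 siRNA, and 121, 138 and 129 CPM in the controls. UBE2V2, known as MMS2, had 49.2, 47.3 and 44.1 CPM after lncSLCC1 siRNA, and 58.0, 74.1 and 73.9 CPM in the controls. In both genes every lncSLCC1 siRNA library was below every control library, and control replicate 1 was the lowest control. The log2 fold changes were -0.41 for UBE2N (SE 0.0831, adjusted p = 0.0127) and -0.55 for UBE2V2 (SE 0.112, adjusted p = 0.0133). Without lncSLCC1 siRNA replicate 1, 2 or 3 or control replicate 2, the adjusted p was 0.0862, 0.0719, 0.071 and 0.0698 for UBE2N and 0.0553, 0.0733, 0.0816 and 0.0742 for UBE2V2.

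UBE2V1 was counted at only 40 to 65 reads per library, at a log2 fold change of 0.11 (SE 0.177, adjusted p = 0.694). It shares its exons with the readthrough gene TMEM189-UBE2V1, listed at 0 reads in every library, and its copy UBE2V1P2 held 355 to 496 reads, so its level is uncertain. With the copy added, the value was -0.07 (SE 0.0991, adjusted p = 0.66).

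UBE2A and UBE2B encode the human RAD6 proteins, which ubiquitinate PCNA with RAD18 and histone H2B with RNF20 and RNF40. UBE2A stood at 72.7 ± 3.03 CPM after lncSLCC1 siRNA and 81.7 ± 9.53 CPM in the controls (SD, n = 3 each; log2 fold change -0.17, adjusted p = 0.277), and UBE2B at 31.97 ± 2.54 CPM after lncSLCC1 siRNA and 33.98 ± 3.40 CPM in the controls (-0.09, adjusted p = 0.619). The groups overlapped for both. Without control replicate 1 the UBE2A value was -0.27 (adjusted p = 0.00281). UBE2T, which monoubiquitinates FANCD2 with the ligase FANCL in the repair of DNA crosslinks, had 28.6, 30.9 and 35.1 CPM after lncSLCC1 siRNA and 46.4, 40.2 and 33.6 CPM in the controls. Control replicate 3 lay inside the lncSLCC1 siRNA range, and the log2 fold change of -0.35 (SE 0.134) missed the threshold (adjusted p = 0.11), but passed it without control replicate 3 (-0.46, adjusted p = 0.0218) and with no low-count filter (0.0462).

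Among the partners of these enzymes, the Fanconi list had 4 of 10 tested genes lower and 1 higher (median -0.17), against 7.39% and 6.46% of all tested genes. FANCA, FANCE, FANCG and FANCC fell by 0.44, 0.62, 0.34 and 0.30 (adjusted p = 0.00942 to 0.0425), FANCF rose by 0.497 (adjusted p = 0.0426), and FANCL was at 0.02 (adjusted p = 0.948). FANCC missed the threshold with library totals (adjusted p = 0.07199) and with no low-count filter (0.0658), and FANCF by DESeq2 (0.0657). In the list of RAD6 partners and lysine-63 ligases, 1 of 12 fell and 2 rose (median 0.13). RNF168, a ligase that marks chromatin at DNA breaks, fell by 0.55 (adjusted p = 0.00767), while RNF20 rose by 0.35 (adjusted p = 0.0282) and HLTF, a ligase for PCNA, by 1.13 (adjusted p = 0.045) at a low level of 2.64 ± 0.0581 CPM against 1.19 ± 0.596 CPM in the controls (SD, n = 3 each).

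Of the E2 enzymes that act at the endoplasmic reticulum in the disposal of misfolded proteins, 1 of 4 fell, against 7.39% of all tested genes. UBE2G2, which serves ligases of that membrane, had 154.7, 154.5 and 149.9 CPM after lncSLCC1 siRNA, and 185, 179 and 180 CPM in the controls. The groups did not overlap and the spread within each was small. The log2 fold change was -0.24 (SE 0.0702, adjusted p = 0.0465), and the call was lost with library totals (adjusted p = 0.0867), with no low-count filter (0.07003), without lncSLCC1 siRNA replicate 1, 2 or 3 (0.166, 0.182 and 0.195) and without control replicate 2 (0.1197). UBE2J2, a membrane-anchored E2, had 84.6, 84.4 and 76.4 CPM after lncSLCC1 siRNA and 124.4, 105.2 and 88.6 CPM in the controls. Its groups did not overlap either, but the log2 fold change of -0.37 (SE 0.120) missed the threshold (adjusted p = 0.0651). Among other settings, it passed by DESeq2 (0.0321), with GC content and length offsets (0.00543), with no low-count filter (0.00506) and without control replicate 1 or 3 (0.0129 and 0.00808). UBE2J1 and UBE2G1 were at 0.09 and -0.11 (adjusted p = 0.436 and 0.496), and UBE2G1 was lower without control replicate 1 (-0.20, adjusted p = 0.0227). In the list of ligases of the endoplasmic reticulum 1 of 11 tested genes fell and 0 rose (median 0.01).

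The UBE2D and UBE2E enzymes and UBE2L3 serve many ligases. Of these 8 genes 1 fell and 0 rose, against 7.39% and 6.46% of all tested genes. UBE2E2 had 23.1, 21.6 and 22.9 CPM after lncSLCC1 siRNA, and 33.7, 35.1 and 34.0 CPM in the controls, so both groups were tight and far apart. This is a log2 fold change of -0.60, with an SE of 0.094 and a 95% confidence interval of -0.81 to -0.39 (adjusted p = 0.00422), and the call held when any library was left out, at adjusted p-values of at most 0.045. Its relatives UBE2E1 and UBE2E3 were at -0.17 and -0.05 (adjusted p = 0.162 and 0.775), and UBE2E1 was lower without control replicate 1 (-0.23, adjusted p = 0.0035). UBE2L3, which serves the parkin and HOIP type of ligase, had 142, 134 and 141 CPM after lncSLCC1 siRNA and 184, 158 and 144 CPM in the controls. Its groups did not overlap, and the log2 fold change of -0.22 did not pass the test (SE 0.097, adjusted p = 0.156), save without control replicate 3 (-0.30, adjusted p = 0.0337) and with GC content and length offsets (0.038). UBE2L4, its pseudogene, was at 0.17 (adjusted p = 0.531).

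Control replicate 1 was the lowest control for UBE2D1, UBE2D2 and UBE2D3, but not for UBE2D4. UBE2D3, the most read member of the family, had 256, 248 and 255 CPM after lncSLCC1 siRNA and 185, 295 and 276 CPM in the controls. Control replicate 1 lay below and the other controls above all lncSLCC1 siRNA libraries, and the log2 fold change was 0.00 (SE 0.147, adjusted p = 0.99). Without control replicate 1 it was -0.18 (adjusted p = 0.0153). UBE2D1 had 24.5, 23.5 and 22.4 CPM after lncSLCC1 siRNA and 10.6, 22.5 and 19.9 CPM in the controls (0.40, SE 0.222, adjusted p = 0.241), and was at 0.15 without control replicate 1 (adjusted p = 0.264). With GC content and length offsets UBE2D1 was called higher (0.33, adjusted p = 0.035). UBE2D2 had 73.3, 67.05 and 69.9 CPM after lncSLCC1 siRNA and 76.5, 96.6 and 85.6 CPM in the controls (-0.30, SE 0.101, adjusted p = 0.0743), and passed the test without control replicate 1 (-0.38, adjusted p = 0.000167). UBE2D4 was at 0.22 (adjusted p = 0.283) on 114 to 153 reads per library.

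**Figure D3:**
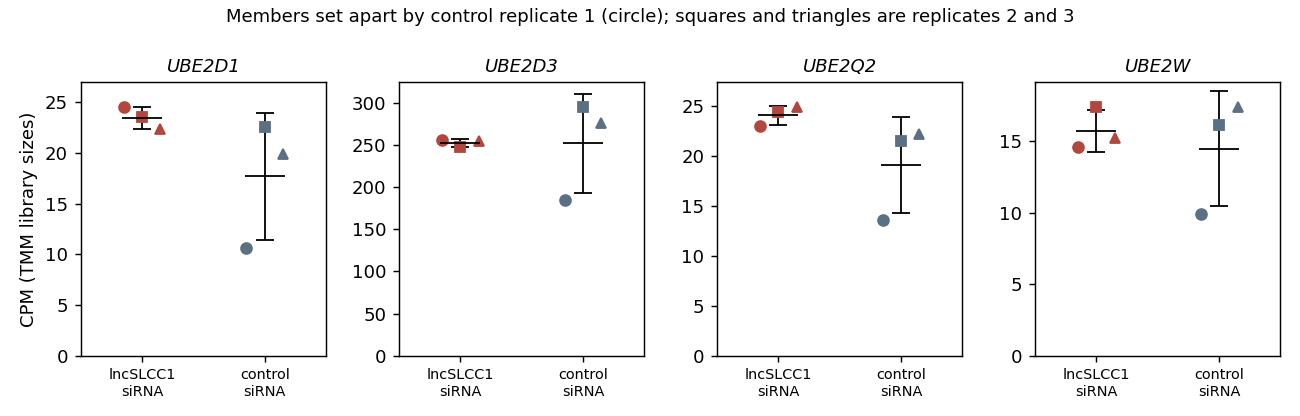
Level in CPM (y axis, from 0) of UBE2D1, UBE2D3, UBE2Q2 and UBE2W in the 3 lncSLCC1 siRNA libraries (red, left) and the 3 control libraries (blue, right), with the mean and SD as bars. Control replicate 1 (circle) lies below every other library in each panel, at 10.6, 185, 13.5 and 9.90 CPM.

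None of the 7 tested members with other roles was called, against 13.8% of all tested genes in either direction. UBE2Q1 had 63.7, 67.1 and 61.4 CPM after lncSLCC1 siRNA and 92.3, 79.4 and 70.8 CPM in the controls, with no overlap (log2 fold change -0.33, SE 0.107, adjusted p = 0.0637), and passed the test by DESeq2 (adjusted p = 0.0375), with GC content and length offsets (0.00968), with no low-count filter (0.0227) and without control replicate 1 or 3 (0.0152 and 0.0132). UBE2Q2 was at 0.33 (adjusted p = 0.209). UBE2K, which extends lysine-48 chains, was at -0.22 (adjusted p = 0.231), and at -0.35 without control replicate 1 (adjusted p = 0.000106) and -0.37 with GC content and length offsets (0.00223). UBE2R2, which builds chains with cullin ligases, was at -0.10 (adjusted p = 0.487), UBE2O, a large enzyme that joins E2 and E3 activity, at 0.07 (0.587), UBE2W, which ubiquitinates amino termini, at 0.12 (0.708) and UBE2H at -0.01 (0.968). UBE2H had the narrowest range of the 33 tested members, its highest library being 1.03 times its lowest, at 73.5 ± 1.13 CPM after lncSLCC1 siRNA and 73.8 ± 1.13 CPM in the controls (SD, n = 3 each). Among E2 enzymes under other names, ATG10 of the autophagy pathway rose by 0.59 (adjusted p = 0.0254), 0 of 8 fell, and CDC34 was at -0.30 (adjusted p = 0.117). The 4 ubiquitin genes were all below 0 (median -0.28) and 0 were called, with RPS27A the nearest at -0.45 (adjusted p = 0.0506).

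Ratios between related genes were taken within each library, where the scaling of libraries cancels. A shift that follows GC content does not cancel where the 2 genes differ in it. UBE2J1 and UBE2J2, for instance, were at 40.1% and 60.2% GC. With GC content and length offsets their log2 fold changes were -0.02 and -0.29. The part of GC content in the ratios was not tested. Of 12 pairs, 6 had groups that did not overlap. Each of these had an exact two-sided permutation p = 0.1, the smallest that 3 against 3 libraries allow, and an adjusted p of 0.2 over the 12 pairs. The share over other gene pairs was not computed. Among single tested genes, 19.6% had every lncSLCC1 siRNA library below every control library and 19.4% had every one above. The log2 ratio of UBE2C to UBE2S was 0.95, 1.00 and 1.06 after lncSLCC1 siRNA and 0.71, 0.73 and 0.87 in the controls, a difference of 0.23. It uses the reads of UBE2S without its copies, and with copies added the log2 fold changes of these genes were closer, at -0.48 for UBE2C and -0.61 for UBE2S. The log2 ratio of UBE2J1 to UBE2J2 averaged 0.54 ± 0.13 after lncSLCC1 siRNA and 0.08 ± 0.30 in the controls (SD, n = 3 each). The difference of 0.46 was 0.31 without control replicate 1 and 0.61 without control replicate 3. The log2 ratio of UBE2Q1 to UBE2Q2 averaged 1.41 ± 0.09 after lncSLCC1 siRNA and 2.11 ± 0.58 in the controls, and without control replicate 1 the difference of -0.70 was -0.37. The UBE2D2 to UBE2D3 ratio averaged -1.85 ± 0.04 after lncSLCC1 siRNA and -1.52 ± 0.22 in the controls, the difference being -0.33 and, without control replicate 1, -0.20. The UBE2E1 to UBE2E3 ratio differed by -0.13, and by -0.065 without control replicate 3, and UBE2V1 to UBE2V2 by 0.64, with the limits on UBE2V1 given above. The ratio of UBE2A to UBE2B overlapped between groups, at 1.19 ± 0.06 after lncSLCC1 siRNA and 1.26 ± 0.31 in the controls.

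**Figure D4:**
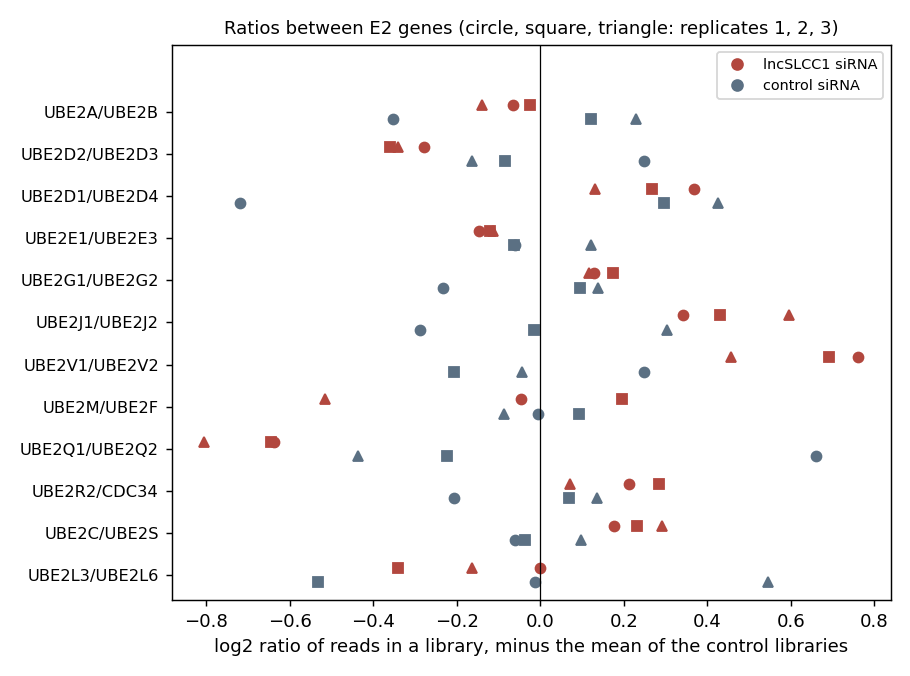
Log2 ratio of reads of 2 related genes within each library, less the mean of the control libraries (x axis), for 12 pairs (y axis), with lncSLCC1 siRNA libraries in red above and control libraries in blue below. The groups do not overlap for 6 pairs, and control replicate 1 (circle) stands apart from the other controls for several pairs, UBE2D1/UBE2D4, UBE2Q1/UBE2Q2, UBE2A/UBE2B, UBE2G1/UBE2G2 and UBE2D2/UBE2D3 among them.

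The control libraries were more scattered than the lncSLCC1 siRNA libraries across the family. The highest library was a median of 1.09 times the lowest among lncSLCC1 siRNA libraries and 1.26 times among controls, and controls were the wider group for 27 of 33 members. Control replicate 1 was the highest control for 14 members and the lowest for 13. Where it stood followed base composition: over the 33 members the log2 ratio of control replicate 1 to the mean of the other controls had a Pearson correlation of 0.72 and a Spearman correlation of 0.75 with the GC content of the longest transcript, and over 13624 tested genes these were 0.63 and 0.65. The points share the same 3 libraries. UBE2D1 and UBE2V2, at 34.0% and 34.3% GC, were low in control replicate 1, and UBE2J2 and UBE2M, at 60.2% and 65.7%, were high. The log2 fold change had weaker correlations with GC content over the members, -0.38 and -0.31, against -0.15 and -0.20 over the 13624 tested genes. The share of reads assigned to no feature was lower in control replicates 1 and 2 but overlapped between the groups, at 7.09% to 7.58% in lncSLCC1 siRNA libraries and 5.42%, 6.27% and 7.18% in control replicates 1, 2 and 3. The part of either in the results was not tested. With offsets for GC content and length, all 8 genes stayed called, and 14 members were called lower and 1 higher, against 16% and 14.2% of tested genes. Their sizes moved: with the offsets UBE2S, UBE2M, UBE2C and UBE2G2 were at -0.66, -0.32, -0.34 and -0.22, from -0.72, -0.46, -0.48 and -0.24. UBE2V2, UBE2N and UBE2E2 were at -0.71, -0.51 and -0.65, from -0.55, -0.41 and -0.60. Without control replicate 1, UBE2S, UBE2M, UBE2C and UBE2G2 were at -0.55, -0.36, -0.34 and -0.23. UBE2V2, UBE2N and UBE2E2 were then at -0.66, -0.46 and -0.62.

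**Figure D5:**
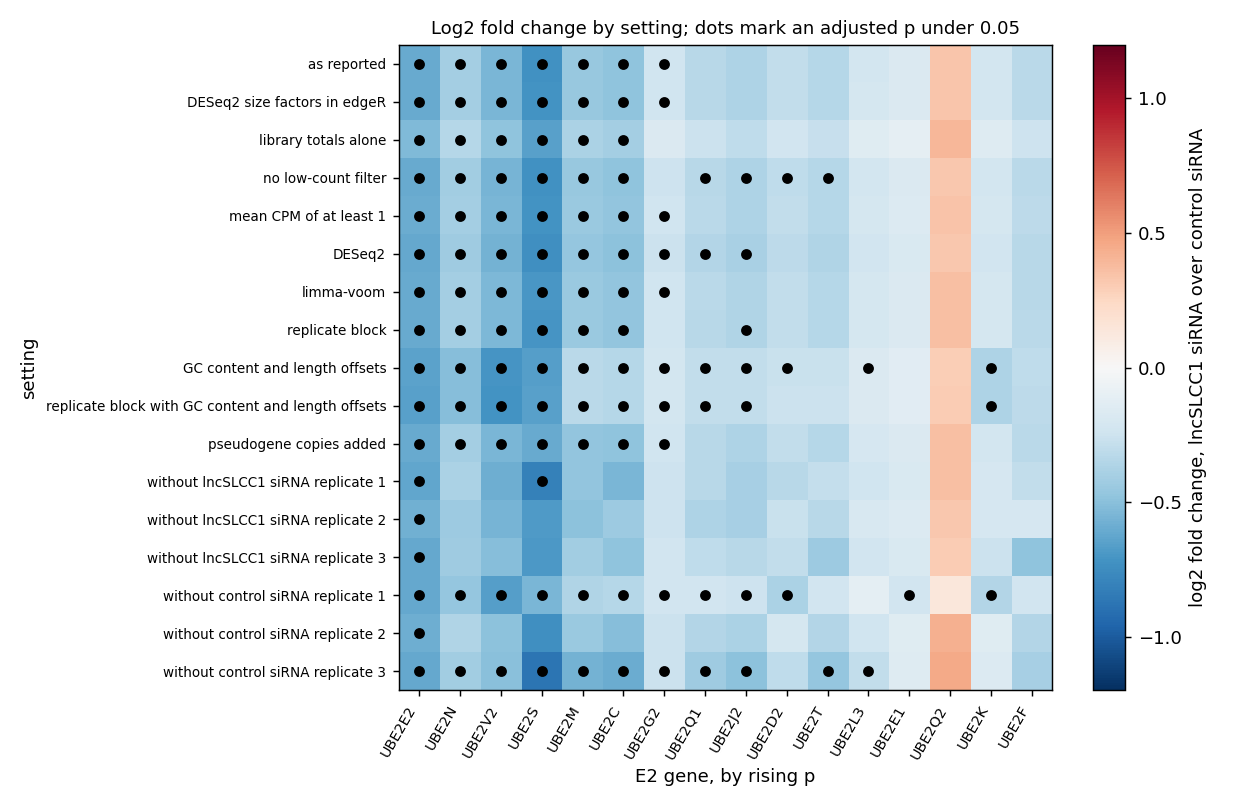
Log2 fold change, lncSLCC1 siRNA over control siRNA (colour), of the E2 genes described here with the smallest p (x axis) under each setting (y axis), with a dot where the adjusted p was under 0.05. UBE2E2 carries a dot in every row, and UBE2N, UBE2V2, UBE2S, UBE2M, UBE2C and UBE2G2 lose it when some libraries are left out.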

How the data were processed

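Total RNA of 6 DLD-1 samples was sequenced, 3 per group, and groups came from the sample titles. The authors deposited raw read counts per gene symbol, and per the submitters' processing notes TopHat2 2.0.11, HTSeq and builds hg19 and GRCh37 were used. Neither the annotation release nor the strand setting is given in the sources used here, so a gene and a gene overlapping it or antisense to it may share reads. HTSeq summary lines stayed out of all totals, and held 5.42% to 7.58% (no feature), 8.83% to 10.1% (ambiguous) and 12.8% to 13.8% (not unique) of the lines' sum.

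Genes were tested by quasi-likelihood in edgeR 4.0.16 under R 4.3.3, over 15242 genes passing the default filter, with TMM scaling and Benjamini-Hochberg adjustment over all of them; an adjusted p under 0.05 was called, and every adjusted p printed comes from this fit unless another tool or setting is named. CPM used TMM library sizes. A standard error is the log2 fold change divided by the root of F. The common biological coefficient of variation was 10.9%. Low read counts limit genes such as UBE2L6 and UBE2V1 most, and those of UBE2V1 are uncertain for the reasons given above. Alternatives were other scalings, filters and tools (DESeq2 1.42.0, limma-voom 3.58.1), a replicate block, GC content and length offsets (splines with 5 degrees of freedom per library, GENCODE release 29 longest transcripts, 89.4% of tested genes matched), pseudogene copies added and each library left out. No replicate pair agreed within sampling noise: the chi-square statistic per gene was 1.86 to 1.99 between lncSLCC1 siRNA libraries and 5.92 to 30.7 between controls. Ratios used counts plus 0.5.

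Members and lists were chosen with earlier results of these data known. Named were the tested members, partners called (at most the 4 with the smallest p per list) and a few partners that act directly with a member, these last chosen after their values were seen. FANCF, HLTF and RNF20 complete small counts. Protein sequences were not used here, and some genes that the counts include are not reported here.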

Additional observations from a re-analysis of the deposited data

How the results depend on the processing

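UBE2E2 was called lower under all 16 alternatives. UBE2N, UBE2V2, UBE2S, UBE2M and UBE2C were called in all that kept the 6 libraries, and so was UBE2G2 except that it also missed the threshold with library totals, no low-count filter and the replicate block (adjusted p = 0.0893). The count of E2 genes called lower was 8, ran from 2 to 16 when a library was left out, and was 14 with GC content and length offsets. The count called higher was 0, also with each library left out (0 to 0), and 1 (UBE2D1) with no low-count filter, with GC content and length offsets, and with these and the replicate block. All called genes numbered 2110, or 3272 with no low-count filter, 4599 with GC content and length offsets, 4129 with these and the replicate block, and 457 to 4543 with a library left out; the cause was not tested. With library totals the split was 1442 higher and 814 lower (63.9% higher in place of 46.6%), and all genes had a median of 0.08 in place of 0.01 (log2).

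Members near 0 changed sign. UBE2D3 was at -0.0017 with no low-count filter, -0.0093 by DESeq2, -0.086 with GC content and length offsets, -0.080 with these and the replicate block, and -0.18 to 0.13 with a library left out. UBE2E3 was at 0.021 with library totals, 0.058 with the offsets, 0.062 with offsets and replicate block, and -0.086 to 0.013 with a library left out. UBE2H was at 0.063 with library totals, 0.00045 with the filter at a mean CPM of 1, and -0.021 to 0.0032 with a library left out. UBE2J1 was at -0.022 and UBE2W at -0.048 with the offsets, and at -0.018 and -0.050 with offsets and replicate block. UBE2L6 was at 0.0060 with offsets and replicate block and -0.41 to 0.15 with a library left out, UBE2W at -0.0904 to 0.265, and UBE2V1 at -0.071 with copies added.

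Whether equal replicate numbers mark paired libraries cannot be told from the counts. Deviations from the group means correlated at 0.094, 0.0014 and -0.016 for numbers 1, 2 and 3, and not every library correlated best with its own number. With the replicate block 8 E2 genes were called lower, UBE2J2 in place of UBE2G2, against 6.95% of tested genes, and 2052 genes were called in all. Of the 16 partner calls, 15 were lost in at least 1 setting, each with a lncSLCC1 siRNA library left out among others, and SENP5 was kept in all. FANCC and PIAS4 were also lost with the replicate block (adjusted p = 0.0753 and 0.06505).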
